A study of Mus musculus with 36 samples.

Results

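The cells described here are cytotoxic lymphocytes without Cd3 transcripts in the mouse submandibular salivary gland, 226 of the 25993 cells that had at least 100 genes and under 15% mitochondrial transcripts in 30 single-cell RNA libraries. They were selected on measured values. Each had at least 1 transcript, counted by its unique molecular identifier (UMI), of at least 2 of the 7 genes Nkg7, Gzma, Ncr1, Klrd1, Klrk1, Prf1 and Cd7, and none of the 8 genes Cd3e, Cd3g, Cd3d, C1qa, C1qb, Krt14, Bmp2 and Bmp4. Of the 226 cells, 118 lay among 23346 cells of 26 Drop-seq glands, in 19 of those glands, and 108 among 2647 cells of 4 CITE-seq glands. Since the levels of these 15 genes chose the cells, and every other RNA level was read in the same cells, all RNA differences from other cells are given as descriptions without a test.

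Natural killer (NK) cells are innate lymphocytes that kill stressed, infected or transformed cells by releasing perforin and granzymes, and they read the target through inherited activating and inhibitory receptors rather than through a T cell receptor with its Cd3 chains. The salivary gland of the mouse is known to hold resident NK cells and related group 1 innate lymphoid cells. Cytotoxic T cells use the same granule proteins, and in sparse counts a T cell may lack a Cd3 UMI.

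The study compared control mice, which carried K14-Cre and the Cre-inducible R26-EYFP reporter, with double-mutant mice, which carried a β-catenin gain-of-function and a Bmpr1a loss-of-function allele besides. K14-Cre acts in basal epithelial cells, so the lymphocytes themselves were not the target of the recombination, and mice of both genotypes were on the C57BL/6 background. Drop-seq, which captures methanol-fixed cells in droplets with barcoded beads, covered 12 control glands, 6 at P40 and 6 at P90, and 14 double-mutant glands, 7 at either stage, and each such group held males and females. CITE-seq, which adds tags on antibodies to surface proteins, covered 2 control (1 labelled male, 1 female) and 2 double-mutant (both female) glands at P70. Bulk mRNA was measured in 1 female control library at P70 and 1 female double-mutant library at P100. Each library came from 1 gland, and live cells were sorted without a gate on an immune marker.

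The libraries differed in ways that touch these cells. In 2 of the 26 Drop-seq libraries, a double-mutant gland at P40 labelled male and a double-mutant gland at P90 labelled female, Xist and Y-linked UMIs went against the labelled sex. These held 1 and 8 of the cells. All 4 CITE-seq libraries held both Xist UMIs (158 to 204) and Y-linked UMIs (51 to 147), so their sex labels were not used. Of the 25993 cells, 42 had a barcode that stood in more than 1 library, and none of the 226 was among them. The 226 cells held a median of 770.5 UMIs (130 to 21790) and 509.5 genes, close to the medians of 714.5 UMIs in 228 cells with a Cd3 UMI (Cd3 cells), 732.5 in 3040 macrophages with a C1qa or C1qb UMI, and 714 in 950 endothelial cells. The lower quartile was 566 UMIs, against 450.5 in Cd3 cells, so shares of cells with a UMI are also given, for lists and for the genes that differed most, after thinning each cell to 500 UMIs, which kept 186 of the 226 cells and 165 of the 228 Cd3 cells.

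The 7 genes of the rule encode granule proteins (Gzma, a granzyme; Prf1, perforin; Nkg7, a granule membrane protein), receptors (Klrd1, also called CD94; Klrk1, also called NKG2D; Ncr1, also called NKp46) and the surface protein Cd7. Their promoters are shown because the genes were found in the same cells and could be read for shared letters. Of the 7 genes, 5 were matched in RefSeq (GRCm38.p6), all but Klrd1 and Cd7. In the 250 bases before the start of transcription, all 5 held the letters TGTGGT, the core bound by RUNX factors, on 1 of the strands. The same letters stood before 15.9% of 27025 genes. Each line gives a stretch 5′ to 3′ on the strand of the gene, with the match in capitals, written ACCACA where it lies on the opposite strand.

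Ncr1 (chr7:4337499-4337584, plus strand): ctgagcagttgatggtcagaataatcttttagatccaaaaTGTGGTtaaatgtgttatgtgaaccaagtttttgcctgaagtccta
Gzma (chr13:113100986-113101071, minus strand): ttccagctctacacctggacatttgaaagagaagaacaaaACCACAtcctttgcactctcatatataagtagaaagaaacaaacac
Prf1 (chr10:61297666-61297751, plus strand): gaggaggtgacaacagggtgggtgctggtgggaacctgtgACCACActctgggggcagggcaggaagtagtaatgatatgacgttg
Klrk1 (chr6:129623948-129624033, minus strand): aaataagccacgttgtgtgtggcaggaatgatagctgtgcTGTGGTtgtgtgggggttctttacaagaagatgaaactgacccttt
Nkg7 (chr7:43437015-43437100, plus strand): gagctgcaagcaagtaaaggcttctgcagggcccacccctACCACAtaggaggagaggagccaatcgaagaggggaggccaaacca

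The match began 50 bases before the start of Gzma, 83 before that of Nkg7, 129 before that of Klrk1, 130 before that of Prf1, and 176 or 185 before the starts given for Ncr1, which held a further match nearer to them. The T-box letters GGTGTGA, searched on both strands in the same way, stood before 1 of the 5 genes (Nkg7, 13 bases before the start, apart from the RUNX letters), against 3.84% of all genes. Of the 20 genes with the highest level in these cells relative to all others, 14 were matched. The RUNX letters were found in 5 of them (Klrb1c, Klrc2, Klre1, Txk and Xcl1), and the T-box letters in 2 (Samd3 and Xcl1). These are matches of letters, and no binding was measured. Of the RUNX genes, only Runx3 was on the lists read here, with a UMI in 12.8% of the cells.

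Within the cells, the genes of the rule differed in how often they were found. Nkg7 had a UMI in 70.8% of the 226 cells, Klrd1 in 61.1%, Cd7 in 59.3% and Klrk1 in 39.4%. Ncr1 followed with 30.1%, Gzma with 21.2% and Prf1 with 12.4%. The most frequent pair was Nkg7 with Klrd1 (94 cells), followed by Nkg7 with Cd7 (89) and Klrd1 with Cd7 (79). Gzma was found in few cells but at many UMIs, 227 in 48 cells, whereas Prf1 had 36 UMIs. In Cd3 cells the same genes were lower, from 36.4% for Nkg7 and 24.1% for Cd7 to 4.82% for Ncr1 and 2.63% for Prf1, and none of the 7 was found in more than 0.362% of C1q macrophages. The 5 markers that name the cells, Nkg7, Gzma, Ncr1, Klrd1 and Prf1, are all genes of the rule, and none was absent. The choice of the cells favored their presence, so it is no check on the name. Prf1 and Gzma were each missing from most cells.

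At the edge of the rule stood 246 cells with 1 of the 7 genes and none of the 8 excluded ones. Their gene was Gzma in 64, Nkg7 in 57, Klrd1 in 43, Cd7 in 39, Klrk1 in 29, Ncr1 in 9 and Prf1 in 5. Just inside, 96 cells had 2 genes, and 71, 38, 18 and 3 cells had 3, 4, 5 and 6. Xcl1, a chemokine gene the rule did not use, was found in 15.9% of the cells with 1 gene, 51.0% of those with 2 and 64.8% of those with 3, against 0.268% of 20898 cells with none. Ptprc, the gene of the leukocyte antigen CD45, went from 21.1% with 1 gene to 55.2% with 2. A further 75 cells had at least 2 of the 7 genes and 1 of the excluded genes, a Cd3 gene in 68 of them.

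The receptors outside the rule were dominated by the Klra genes, the family of polymorphic receptors for MHC class I and its viral mimics. Klra8, an activating receptor, was found in 43.4% of the cells and Klra4, likewise activating, in 42.5%, against 5.7% and 7.46% of Cd3 cells and 0.263% and 0.132% of C1q macrophages. Klra7 (24.8%) and Klra9 (16.8%) were less frequent. The Klra genes are near-identical copies that share reads with each other and with pseudogenes such as Klra13-ps (46.0%), so how the counts fall among them is uncertain. In the 11 Drop-seq glands with at least 5 of the cells, the share with Klra8 had a lowest value of 20%, a median of 33.3% and a highest of 57.1%, and in the 4 CITE-seq glands it was between 40.9% and 57.9%. No gland of either set was without it.

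The lectin-like receptors of the neighboring Klr genes were also found. Klre1 had a UMI in 36.3% of the cells (Cd3 cells 11.4%), Klrb1c, the gene of the NK1.1 antigen, in 23% (6.14%), Klri2 in 21.7% (1.75%), Klrb1b and Klrb1f in 16.4% each and Klrc2 in 10.6%. Tigit, an inhibitory receptor, was found in 10.2%. Of the 27 receptor genes listed, 26 had a UMI in the cells, 11 were found in at least 10% of them and 23 were more frequent than in Cd3 cells (20 after thinning), as were 57.6% of 15387 genes with a UMI in either kind of cell. For comparison, 9.73% of all 12801 genes with a UMI in the cells were found in at least 10% of them. The median over the receptor list was 9.29% and over all these genes 1.77%.

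The adaptors that carry the signal of such receptors were among the most frequent genes. Tyrobp (also called DAP12), which pairs with activating receptors, was found in 66.4% of the cells and Fcer1g, the common chain of Fc receptors that also pairs with Ncr1, in 65.9%. Cd3 cells had 17.5% and 21.1%, whereas C1q macrophages, which use both adaptors, had 52.3% and 51.1%. In the 11 Drop-seq glands, Tyrobp ranged from 12.5% to 100% (median 66.7%), and in the 4 CITE-seq glands from 62.1% to 84.2%. Hcst, the adaptor of Klrk1, was at 23% (Cd3 cells 18.9%). The phosphatase gene Ptpn6, which acts below inhibitory receptors, was found in 23.5% (7.89%) and the kinase gene Txk in 15% (3.51%). Ptpn6 depended on the assay, with 10.2% against 4.4% in the Drop-seq and 38.0% against 15.9% in the CITE-seq cells, and CITE-seq gave 108 of the 226 but 69 of the 228 cells. The T cell kinase gene Lck was at 20.4% and 24.6%. Of the 18 signaling genes listed, 9 were found in at least 10% of the cells, and 11 were more and 7 less frequent than in Cd3 cells, but 9 and 9 after thinning.

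Among effectors, Xcl1, a chemokine that attracts cross-presenting dendritic cells, had the most UMIs (478) and was found in 61.1% of the cells, against 26.3% of Cd3 cells and 0.263% of C1q macrophages. In percentage points it was the gene of this list that differed most between the assays, with 47.5% of the Drop-seq and 75.9% of the CITE-seq cells. In the 11 Drop-seq glands it was found in 0% to 75% of the cells (median 55.6%) and in the 4 CITE-seq glands in 62.1% to 92.1%, so that the glands overlapped. Srgn, the proteoglycan that packs granule proteins, was at 67.7% (Cd3 cells 54.8%), and the protease gene Ctsw at 43.8% (28.9%). The chemokine gene Ccl5 was at 47.8% and was slightly more frequent in Cd3 cells (53.5%). Granzymes other than Gzma were sparse. Gzmb was at 14.2% (Cd3 cells 14.9%), Gzmc at 8.41%, and Gzmk had no UMI in the 226 cells, which allows a share of up to 1.33% of cells with a UMI. The death ligand gene Fasl was at 10.2%, the granzyme inhibitor gene Serpinb9 at 21.7% and its relative Serpinb6b at 12.4%. Ifng, the gene of interferon gamma, was at 7.52% (Cd3 cells 5.7%). Ccl4 was found in 13.7% of the cells but in 60.9% of C1q macrophages. Of the 22 effector genes in the files, 9 were found in at least 10% of the cells, and 14 were more and 7 less frequent than in Cd3 cells (12 and 8 after thinning).

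**Figure D1:**
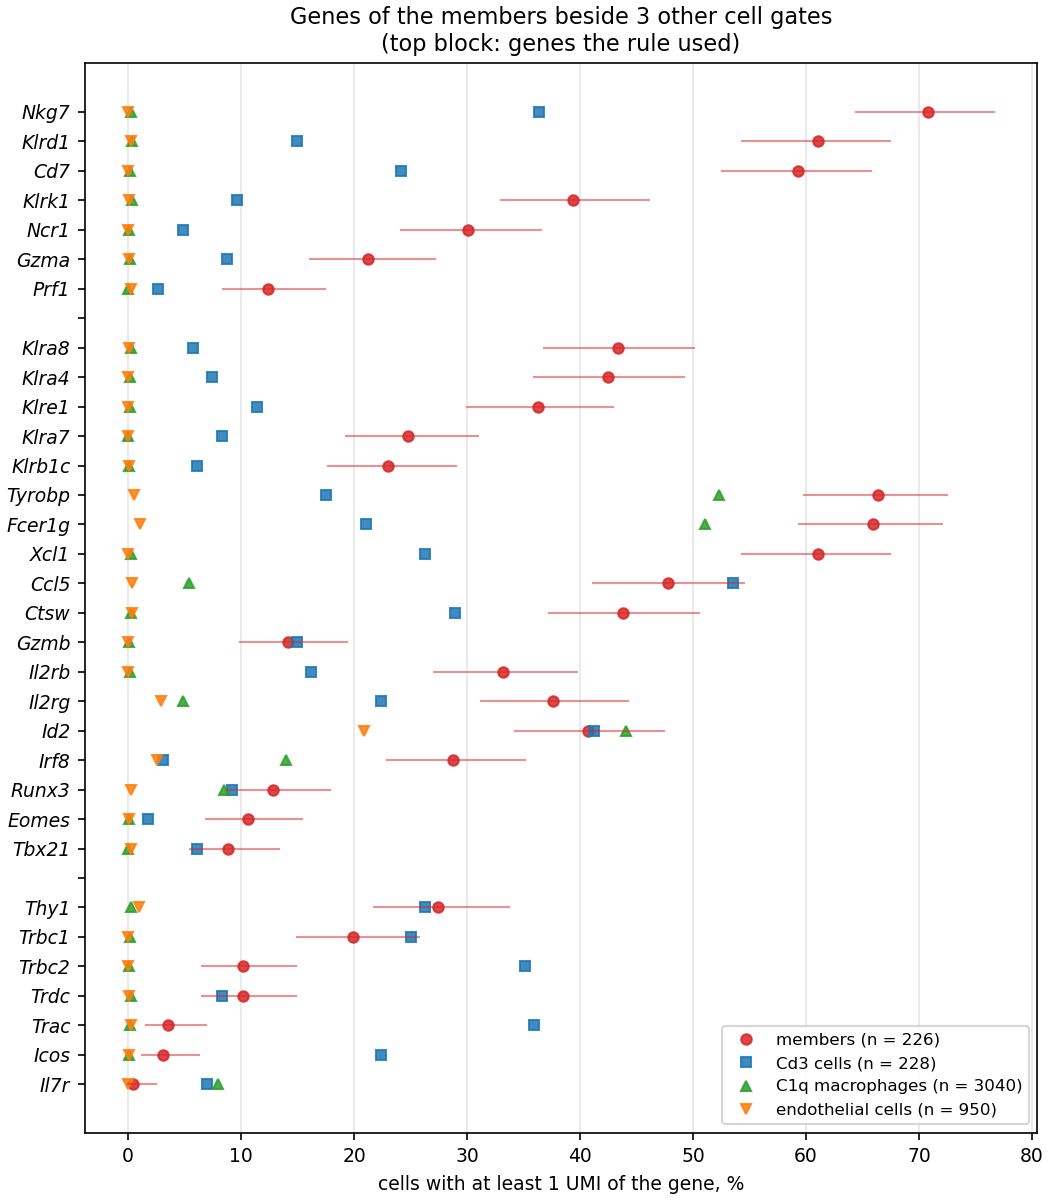
Share of cells with at least 1 UMI of each gene, in percent, for the 226 cytotoxic lymphocytes without Cd3 transcripts and for Cd3 cells, C1q macrophages and endothelial cells. The upper block holds the genes that chose the cells. Klra8 (43.4% against 5.7% in Cd3 cells) and Tyrobp (66.4% against 17.5%) stand apart from Cd3 cells, whereas Ccl5 (47.8% against 53.5%) does not.

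The transcription factors of the lineage were found in few cells at this depth. Id2, needed by all innate lymphoid cells, was at 40.7%, at about the share in Cd3 cells (41.2%) and C1q macrophages (44.1%). Irf8 was at 28.8%, against 3.07% and 14%. Ets1 was at 15.5% (Cd3 cells 18.9%), Runx3 at 12.8% (9.21%) and Hopx at 10.2% (10.1%). Of the T-box factors of NK cells and group 1 innate lymphoid cells, Eomes was at 10.6% (1.75%) and Tbx21 at 8.85% (6.14%). In the 15 glands with at least 5 of the cells, Eomes had a UMI in 6 of 11 Drop-seq glands and in 4 of 4 CITE-seq glands. Of the 16 factors listed, 9 were more and 6 less frequent than in Cd3 cells, and after thinning 4 and 11.

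The receptors of IL-2 and IL-15, the cytokines on which NK cells depend, were present. Il2rb, the beta chain, was found in 33.2% of the cells (Cd3 cells 16.2%) and Il2rg, the common gamma chain, in 37.6% (22.4%). Thinned to 500 UMIs, Il2rb was at 15.1% and 12.1%, so that most of its gap was not seen at matched depth. The transducers Jak1 (25.7%) and Stat3 (19.9%) followed. Il7r, the receptor of IL-7, had a UMI in 0.442% of the cells. Thinning kept the direction against Cd3 cells for Klra8 (29.6% against 5.45%), Tyrobp (53.8% against 15.8%), Xcl1 (52.2% against 24.8%) and Irf8 (18.8% against 1.82%).

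Of the homing and residency genes, Cd52 was found in 81.4% of the cells, and Rgs1 (53.5%) and Rgs2 (50.4%), regulators of signaling from chemokine receptors, in about as many cells as each other. The chemokine receptor genes Ccr2 (23%, Cd3 cells 8.77%) and Cxcr4 (11.1%, 14.9%) were next. The integrin genes Itga1 (7.52%) and Itgae (6.19%), which mark tissue-resident lymphocytes, stood at 4.82% and 7.46% in Cd3 cells. Ltb was the only gene of group 2 and 3 innate lymphoid cells in at least 10% of the cells (13.3%), and Il1rl1, Il5, Il22 and Il23r had no UMI.

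The 20 genes with the highest ratio of counts per 1000000 (CPM) in these cells to that in all other kept cells, among 1239 genes outside the rule found in at least 10% of the cells, are given as a description, since the choice of the cells enters them. They were Klrb1f (574-fold), Klra4, Klra13-ps, Samd3, Klra9, Klra14-ps, Klra8, Klrb1c, Klrc2, Klri2, Klre1, Eomes, Klra7, Xcl1, Txk, Skap1, Il2rb, Ctsw, Tnfrsf9 and Ms4a4b (266-fold). The median ratio over the 1239 genes was 3.49. Of the 20, 11 belong to the Klr genes of the NK receptor families.

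Genes of T cells other than Cd3 divided the cells. A UMI of a T cell receptor constant gene (Trac, Trbc1, Trbc2, Trdc, Tcrg-C1, Tcrg-C2 or Tcrg-C4) was found in 79 of the 226 cells, 35.0% (95% Clopper-Pearson interval 28.8 to 41.6). The share was 66.2% in Cd3 cells, 0.592% in C1q macrophages and 0.421% in endothelial cells, and after thinning 23.7%, 53.9%, 0.182% and 0.311%, so that it was above what cells without these genes showed. The 79 cells were not alike with Cd3 cells in which constant gene they held. Trac was found in 3.54% of the 226 cells against 36.0% of Cd3 cells and Trbc2 in 10.2% against 35.1%, whereas Trbc1 was at 19.9% against 25% and Trdc at 10.2% against 8.33%. Unrearranged Trbc and Trdc transcripts are known in NK cells, and T cells with an uncaptured Cd3 UMI would hold constant genes as well. The part of each among the 79 cells was not tested.

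The T cell genes that do not belong to the receptor were mostly low. Cd4 and Foxp3 had no UMI, Cd8a was found in 0.442% of the cells (Cd3 cells 11.8%), Cd8b1 in 0.885% (17.5%), Icos in 3.10% (22.4%) and Cd28 in 4.42% (14%). Thy1 (27.4% against 26.3%) and Cd2 (17.3% against 17.5%), which NK cells are also known to express, were close in both kinds pooled. Within an assay Thy1 was close as well, but Cd2 was at 7.63% against 13.8% in the Drop-seq and 27.8% against 26.1% in the CITE-seq cells. Cd27 was at 10.6% (7.02%). Of the 22 T cell genes, 6 were found in at least 10% of the cells, and 17 were less and 4 more frequent than in Cd3 cells (17 and 3 after thinning).

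Cd3 cells that also held at least 2 of the 7 genes of the rule were set beside the 226 cells, a comparison chosen after the data were seen. There were 66 of them among 228 Cd3 cells, with a median of 821.5 UMIs. In 24 of the 66, and in 89 of the other 162 Cd3 cells, Cd3 rested on a single UMI. The 66 cells lay between the 226 cells and the other Cd3 cells in the NK receptors, with Klra8 in 15.2%, against 43.4% in the 226 cells and 1.85% in the other Cd3 cells, and Klrb1c in 16.7%, against 23% and 1.85%. Fcer1g was found in 54.5%, against 65.9% and 7.41%. They held a T cell receptor constant gene in 74.2%, Trac in 33.3%, Cd8a in 15.2% and Gzmb in 36.4%, whereas Irf8 was at 7.58%.

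Within the 226 cells, the 79 with a T cell receptor constant UMI (median 946 UMIs) and the 147 without (median 721) were alike in Klra8 (41.8% and 44.2%), Irf8 (29.1% and 28.6%) and Ccl5 (49.4% and 46.9%). The 79 had more Xcl1 (70.9% against 55.8%) and Klrb1c (31.6% against 18.4%), and fewer of them had Gzma (12.7% against 25.9%). They also had more Ly6e (64.6% against 41.5%), Klrd1 (74.7% against 53.7%), Srgn (79.7% against 61.2%) and Ptpn6 (35.4% against 17.0%). Gzma and Klrd1 are genes of the rule, so the choice of the cells enters their shares. The part of the greater depth of the 79 cells in these gaps was not tested. A division by Gzma, which the rule used, gave a different picture. The 48 cells with a Gzma UMI (median 720 UMIs) had Ccl3 in 20.8% (10 cells) and the 178 without (median 787 UMIs) in 2.81% (5 cells). Gzmb was at 31.3% against 9.55%, Irf8 at 45.8% against 24.2%, and Ccl5 at 70.8% against 41.6%. Xcl1 was lower with Gzma, 47.9% against 64.6%, as were Gzmc (2.08% against 10.1%) and Itga1 (2.08% against 8.99%), which rest on 1 cell each on the Gzma side. Klra8 was at 35.4% against 45.5%. The glands were not spread evenly over this division. The 30 cells of the control P90 glands held 17 of the 48 Gzma and 12 of the 32 Gzmb cells. Without those glands, left out after the data were seen, Gzmb was at 22.6% of 31 cells with and 7.88% of 165 without Gzma. Irf8 was at 48.4% and 25.5% and Ccl5 at 67.7% and 39.4%. Of these 31 cells, 18 were CITE-seq cells, where Gzmb was at 27.8% against 6.67% and Irf8 at 55.6% against 21.1%. The gaps were smaller between the 13 Drop-seq cells with and the 75 without Gzma. There Gzmb was at 15.4% against 9.33%, Irf8 at 38.5% against 30.7% and Ccl5 at 53.8% against 40%. In the control P90 glands Xcl1 went the other way, 52.9% with and 38.5% without Gzma. Cells are not replicates, so these divisions carry no test.

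**Figure D2:**
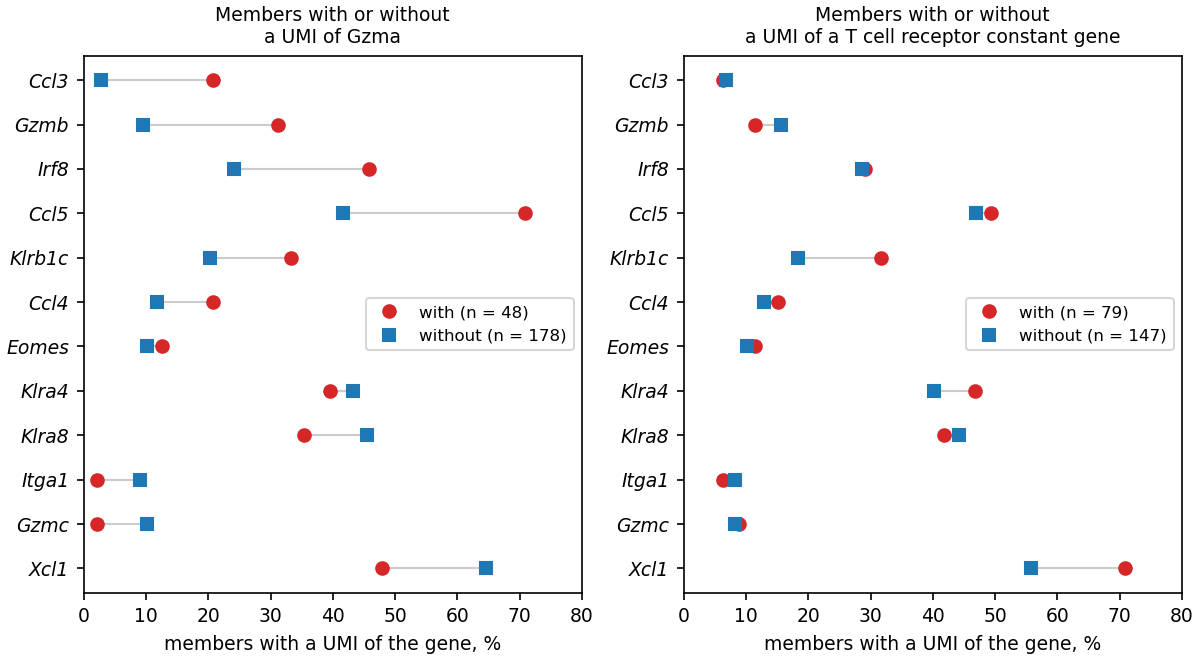
Share of the 226 cells with a UMI of each gene, in percent, for cells with (circles) and without (squares) a UMI of Gzma on the left and of a T cell receptor constant gene on the right. Ccl3, Gzmb, Irf8 and Ccl5 lie apart by Gzma (Gzmb 31.3% against 9.55%), and Xcl1 (70.9% against 55.8%) and Klrb1c (31.6% against 18.4%) by the T cell receptor genes.

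Markers of other cells were looked for in the same way. No gene of the myeloid, dendritic, endothelial, fibroblast or mast cell lists reached 10% of the cells, and the highest were Ctss (7.08%) and Itgam (6.19%). Cd79a and Cd79b had no UMI, whereas Ighm was at 15% and Igkc at 14.2%, beside 9.57% and 11.8% in C1q macrophages. Igkc depended on the assay, with 5.08% of the Drop-seq and 24.1% of the CITE-seq cells. CITE-seq gave 108 of the 226 cells but 555 of the 3040 C1q macrophages. Secretory transcripts were found in all kinds of cell. Prol1, a secretory product of the gland, was found in 63.3% of the 226 cells, 56.6% of Cd3 cells and 59.7% of C1q macrophages, and the 13 secretory genes together took a median of 0.575%, 0.562% and 0.592% of the UMIs of a cell. In 4 of the 226 cells secretory genes took over 10% of the UMIs, and 3 of the 226 had over 6000 UMIs, of which 20.2% to 73.6% were secretory. The immediate early gene Junb, known to rise during tissue dissociation, was found in 78.3%, against 67.5% of Cd3 cells.

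**Figure D3:**
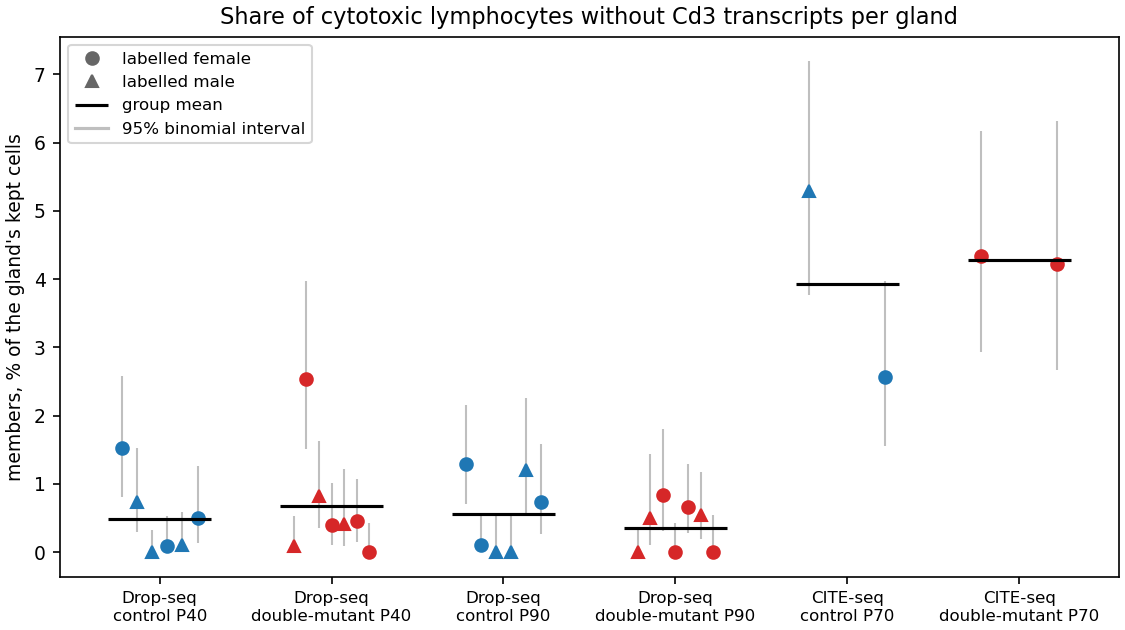
Share of kept cells that were cytotoxic lymphocytes without Cd3 transcripts in each gland, in percent, with 95% binomial intervals, by genotype and stage for Drop-seq and CITE-seq, with bars for group means. Drop-seq glands lie between 0% and 2.54% in all 4 groups and the 4 CITE-seq glands between 2.57% and 5.29%.

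Whether the cells changed in number with the mutation was asked in the Drop-seq glands, where genotype, stage and sex were replicated and none had been used to choose the cells. In control glands the share of kept cells had a lowest value of 0%, a median of 0.302% and a highest of 1.52% at P40, and 0%, 0.416% and 1.29% at P90. In double-mutant glands it was 0%, 0.421% and 2.54% at P40 and 0%, 0.495% and 0.832% at P90. All 4 groups overlapped. The mean was 0.520% ± 0.654 (SD, n = 14) in double-mutant and 0.523% ± 0.563 (SD, n = 12) in control glands, a difference of -0.00359 percentage points (permutation test, 100000 resamples, two-sided p = 0.985, adjusted p = 0.985 over 3 contrasts). The interval of 2 standard errors around it ran from -0.481 to 0.474 points, so a rise or fall by most of the control mean was not excluded at these numbers of cells. The C1q macrophages of the same glands made up 14.7% ± 7.26 of double-mutant and 6.07% ± 4.16 of control cells, and the share of any cell depends on the others.

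Stage and sex gave no difference past the spread between glands either. The share was 0.450% ± 0.473 at P90 and 0.592% ± 0.721 at P40 (13 glands each, difference -0.142 points, permutation p = 0.582, adjusted p = 0.873). Within control glands P90 was 0.0600 points above P40 (exact permutation p = 0.896) and within double-mutant glands it was lower, -0.316 points (exact permutation p = 0.492), and the difference between these was -0.376 points (permutation p = 0.460). The sign of the stage difference came from 1 gland, the female double-mutant replicate 2 at P40 with 18 of the cells (2.54%), without which it was 0.0197 points. Glands labelled female had 0.652% ± 0.721 (n = 14) and those labelled male 0.369% ± 0.402 (n = 12), a difference of 0.282 points (permutation p = 0.250, adjusted p = 0.750). In the CITE-seq glands the share was 5.29% and 2.57% in the control and 4.34% and 4.22% in the double-mutant glands. The genotypes overlapped, and the exact permutation p of 1 could not have fallen below 0.33.

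The cells were a larger share in the CITE-seq than in the Drop-seq glands, a comparison chosen after the data were seen. The mean was 4.11% ± 1.13 (SD, n = 4) against 0.521% ± 0.602 (SD, n = 26), a ratio of 7.88, and the lowest CITE-seq gland (2.57%) lay above the highest Drop-seq gland (2.54%). The exact permutation p was 7.3e-05, the smallest these numbers can give, and 0.000292 after adjustment over 4 kinds of cell. Cd3 cells were 3.69 times as frequent (adjusted exact permutation p = 0.0444), C1q macrophages 2.05 times (0.0444) and endothelial cells 0.867 times (0.816). The differences between these ratios were not tested. Stage, batch, fixation, the antibody staining and a spike-in of human cells all differed between the assays and cannot be told apart. Per the study's methods, a low amount of human HEK cells was added to the CITE-seq cells, and the authors removed human cells and doublets. Here no barcode was removed as human, and whether the counts used still held such cells was not tested. The 4 CITE-seq libraries also held transcripts of both sexes.

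Beside Cd3 cells, the counts were 56 to 48 in control and 62 to 111 in double-mutant Drop-seq glands, and 57 to 23 and 51 to 46 in control and double-mutant CITE-seq glands. In 5 of the 12 control and 3 of the 14 double-mutant Drop-seq glands the cells outnumbered Cd3 cells, and in 4 and 8 glands they were outnumbered. Over the 26 Drop-seq glands, the share of the cells and that of Cd3 cells had a Pearson correlation of 0.728 (permutation p = 0.004, adjusted p = 0.016 over 4 relations) and a Spearman correlation of 0.556 (permutation p = 0.0046, adjusted p = 0.0184). Without the 2 glands farthest from the median of the Cd3 share, Pearson's r was 0.448 (permutation p = 0.0409), and after centering on the batch means it was 0.727. Both shares have the same denominator, and both gates read the same libraries. With the share of C1q macrophages r was 0.414 (adjusted permutation p = 0.107; rho 0.457, adjusted p = 0.0388), and 0.526 without the 2 farthest glands. With that of endothelial cells r was 0.342 (adjusted permutation p = 0.156; rho 0.424, adjusted p = 0.0447), and 0.408 without the 2 farthest. With the median UMIs of a gland's cells r was -0.259 (adjusted permutation p = 0.172; rho -0.299, adjusted p = 0.139), and -0.144 without the 2 farthest.

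Gene by gene, the cells were compared over the 11 Drop-seq glands that held at least 5 of them (5 control, 6 double-mutant; 100 cells, 2106 to 42789 UMIs per gland). In the gland with 42789 UMIs, the male double-mutant replicate 3 at P40, 1 cell held 21790 of them, 21.1% of these secretory. The fits were not repeated without this cell. Only 97 genes, among them the secretory genes Prol1, Car6 and Pip, had enough counts to test for genotype and for stage, and 111 for sex. None was called at an adjusted p under 0.05 by edgeR's quasi-likelihood test, 0 of 97 genes (0.0%) for genotype, 0 of 97 (0.0%) for stage and 0 of 111 (0.0%) for sex, with 5, 5 and 9 genes at an unadjusted p under 0.05. DESeq2 called 0 as well, with 8, 7 and 16 at an unadjusted p under 0.05. In simulated counts of the genotype comparison, edgeR found 1 of 10 genes changed by a log2 of 1 and 10 of 10 changed by a log2 of 2, so changes of the smaller size would mostly have been missed. The genes with the smallest p for genotype were H2-K1 (log2 difference 0.93 ± 0.29 SE, double-mutant minus control, edgeR adjusted p = 0.554), Rps13 (-0.91) and Actb (1.14). For stage these were Tmsb10 (0.85, P90 minus P40), Rpl37a (0.84) and Ccl5 (1.22 ± 0.47 SE, edgeR adjusted p = 0.600), and for sex mt-Nd5 (-0.81, female minus male), Gzma (-1.36, a description, since the rule used this gene) and Eef1a1 (0.93). The fit by sex used the labels and held the double-mutant P90 gland labelled female whose transcripts went against them. Without the 2 such libraries, 0 of 119 genes were called, with 9 at an unadjusted p under 0.05. Gzma was found in 7.69% to 66.7% of the cells of the 5 control glands and in 0% to 50% in the 6 double-mutant glands, with overlap.

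Surface proteins gave a readout that the rule had not used. In the 4 CITE-seq glands, tags were summed over the 108 cells and over the 69 Cd3 cells, 8 to 23 per gland, and given per 10000 tags. CD8, the coreceptor of cytotoxic T cells, had 21.6 and 12 tags in the control and 92.7 and 31.0 in the double-mutant glands, where the Cd3 cells of the same glands had 259, 48.7, 582 and 682. It was lower in 4 of 4 glands, with means of 39.3 ± 36.4 and 393 ± 292 (SD, n = 4). With 4 pairs the exact sign-flip permutation test cannot go below p = 0.13, which it gave here, so no tag could pass 0.05. Of all 61 tags, 15 (24.6%) were higher and 5 (8.2%) lower than in Cd3 cells in 4 of 4 glands, and 4 (6.56%) and 3 (4.92%) did so without overlap between the glands of each kind.

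CD4 went the same way as CD8, with 30.7, 37.9, 46.1 and 44.6 tags against 42.2, 42.4, 147 and 213. CD103, the integrin chain encoded by Itgae, had 266, 183, 182 and 107 tags against 336, 456, 513 and 407, lower in 4 of 4 glands without overlap. The tag for the gamma-delta T cell receptor stood at 461 ± 95.7 against 764 ± 420 (SD, n = 4), lower in 3 of 4 glands (exact permutation p = 0.25). Its medians per cell, given below, were close in both kinds of cell. CD69, a marker of activation and residency, was lower in 3 of 4 glands (232 ± 65.3 against 303 ± 164; exact permutation p = 0.625). Ly6C and Ly6A_E, named after their values were seen, were lower in 4 of 4 glands without overlap (37.9 ± 8.12 against 316 ± 376, and 47.3 ± 9.02 against 174 ± 48.9). In the control replicate 2, Ly6C on the 8 Cd3 cells stood at 872, against 51.4 to 207 in the other glands.

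CD11b, an integrin of myeloid cells that NK cells gain as they mature, had 63.3 and 61.8 tags in the control and 77.2 and 28.2 in the double-mutant glands, against 6.17, 11, 7.87 and 10.4 in Cd3 cells. It was higher in 4 of 4 glands without overlap, and still below the C1q macrophages (mean 157). On the 108 cells it lay above the lowest isotype control in 2 of 4 glands and above the mouse IgG2a control in 0 of 4, and on Cd3 cells it lay below every isotype control. The levels of CD11c, which some NK cells carry in the mouse, were 686, 414, 344 and 236 against 249, 167, 102 and 126, also higher in 4 of 4 glands. CD11c lay above every isotype control in all 4. CD45R stood at 77.4, 54.8, 57.0 and 79.2 against 20.9, 53.4, 29.2 and 38.2, and above the mouse IgG2a control in 0 of 4. CD11c and CD45R were named after their values were seen. The study's antibody list names no host or isotype for CD11b, CD11c and CD45R, so these controls may not match them.

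NK1.1, the antigen of Klrb1c, gave no clear difference. It had 34.8 and 38.9 tags in the control and 42.6 and 151 in the double-mutant glands, against 28.0, 20.4, 65.8 and 41.0 in Cd3 cells. The mean was 66.8 ± 56.3 against 38.8 ± 19.9 (SD, n = 4), higher in 3 of 4 glands (difference 28.0, exact sign-flip permutation p = 0.5), and it rested on the double-mutant replicate 2. NK1.1 was below the mouse IgG2a isotype control in all 4 glands, and cells with a Klrb1c UMI had 32.8 tags per 10000 (29 cells), against 65.8 in the 79 without. The medians per cell were 34.1 and 30.6, in the opposite order.

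The isotype controls, mouse IgG1, IgG2a and IgG2b and a control named AH IgG, give a rough background for these readouts. The study's antibody list names no host or isotype for the other antibodies, so a control may not match a given tag. On the 108 cells they ranged from 54.6 to 223 tags per 10000 over controls and glands, and on Cd3 cells from 40.9 to 118. The mouse IgG2a control was itself higher than on Cd3 cells in 4 of 4 glands without overlap (170 ± 57.3 against 92.6 ± 23.6), as was the IgG2b control with overlap, whereas the IgG1 control was alike (76.4 in both). CD8, CD4, NK1.1, CD11b, CD45R, CD103, Ly6C and Ly6A_E means lay within or below the range of these controls on the same cells. So did those of EpCAM and CD127. EpCAM, an epithelial protein, was 102 ± 73.5 against 68.7 ± 25.9, higher in 1 of 4 glands. Given per 100 isotype tags, a scale chosen after the data were seen, 3 tags were higher in 4 of 4 glands (CD11b, CD11c and the IgG2a control) and 14 lower. The 5 tags lower on the first scale, CD8, CD4, CD103, Ly6C and Ly6A_E, were lower on both. CD127, the IL-7 receptor, was higher in 4 of 4 glands on the first scale (120 against 111) and in 0 of 4 on the other. A second tag on the same antibody clone, per the study's antibody list, was higher in 2 of 4 (35.2 against 39.9, exact permutation p = 0.75). The cells carried fewer tags than Cd3 cells, with medians of 414 to 730 per gland against 636 to 1105.

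The 41 cells of these glands with a T cell receptor constant UMI had 66.1 CD8 tags per 10000 and the 67 without had 19.7. Both were below the 450 of the Cd3 cells pooled. Their medians per cell for CD8 were 28.5 and 7.25, against 42.2 in Cd3 cells, a much smaller gap. For the gamma-delta receptor tag the pooled values were 431 and 453, against 876 in Cd3 cells. Its medians per cell were 409 and 444, against 416 in Cd3 cells, so the lower pooled level was not seen in the medians. The median per cell for CD11b was 25.6 and 27.8.

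**Figure D4:**
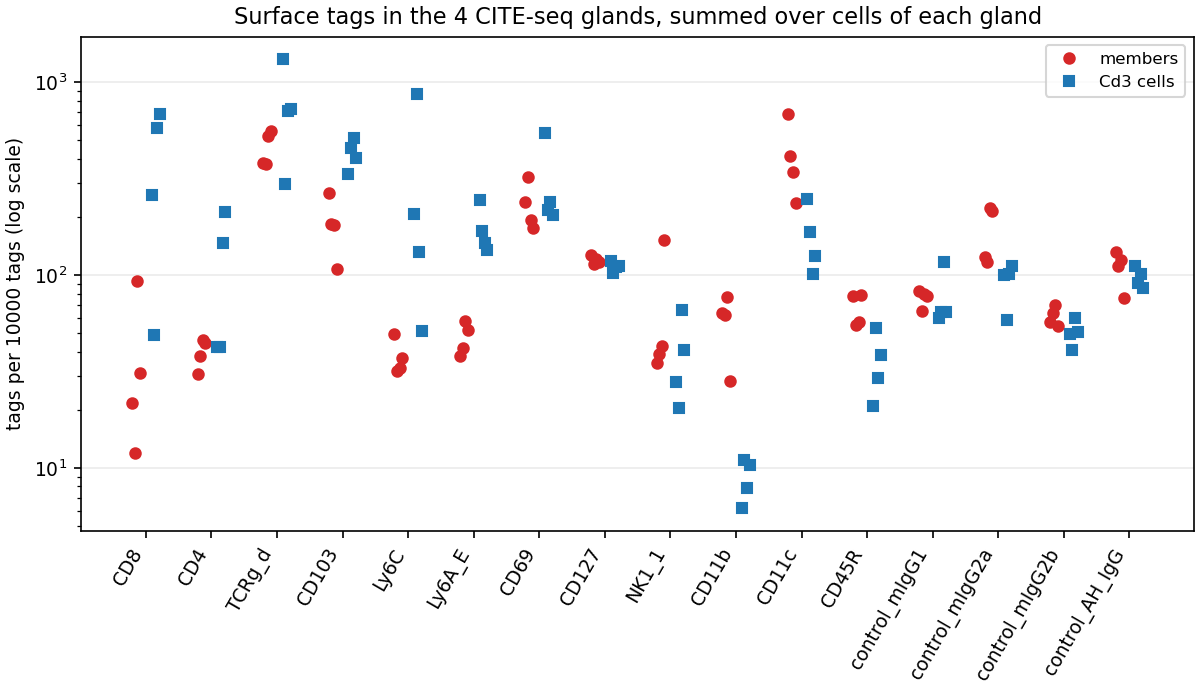
Tags per 10000 tags (log scale) for named antibodies in the 4 CITE-seq glands, with 1 point per gland for the 108 cytotoxic lymphocytes without Cd3 transcripts (circles) and for Cd3 cells (squares). CD8, CD4 and CD103 lie below Cd3 cells and CD11b above them in 4 of 4 glands, and NK1.1 and CD11b both lie below the mouse IgG2a control in all 4. This control may not match every antibody in host or isotype.

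The signals that such cells receive were read in all other cells of the 26 Drop-seq glands, from a list of 36 cytokines, chemokines and receptor ligands of which 34 were in the files and 20 had enough counts. By edgeR's quasi-likelihood test 8 were higher and 2 lower in double-mutant glands, beside 1234 (14.1%) higher and 674 (7.7%) lower of 8753 genes. The other 10 did not pass the test. The median log2 difference of the 20 was 0.69, and 0.01 over all genes. In sums over a gland, fewer cells of a type and less RNA per cell cannot be told apart. The C1q macrophages (14.7% against 6.07%) and the endothelial cells (4.98% against 2.41%) were both a larger share of the cells in double-mutant glands, and their part in these results was not tested.

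Of the 8 genes called higher, 6 encode chemokines. Cxcl12, the ligand of Cxcr4, had 4.76, 38.4 and 179 CPM as lowest, median and highest value in double-mutant glands and 0.475, 2.65 and 33.8 in control glands (log2 difference 2.37 ± 0.50 SE, edgeR adjusted p = 0.00248). Ccl7, a ligand of Ccr2, had 4.45, 19.4 and 68.6 CPM against 0, 2.85 and 10.6 (2.43 ± 0.35 SE, edgeR adjusted p = 6.6e-05). The groups overlapped for both. Ccl2, the main ligand of Ccr2, rose by a log2 of 1.62, Cxcl10 by 1.42, Cxcl16 by 0.95, Cx3cl1 by 0.94, Tgfb3 by 0.69 and H2-K1, a class I molecule read by Klra receptors, by 0.69. The highest adjusted p among these was that of Tgfb3 (edgeR adjusted p = 0.0434), which kept its call in 3 of 7 alternatives, and H2-K1 kept its call in 5 of 7. With the batch as a block Cxcl10 (edgeR adjusted p = 0.0706) and Cxcl16 (edgeR adjusted p = 0.109) were not called. Ccl3, Ccl4, Ccl5 and B2m did not pass.

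Il15, which keeps NK cells alive, and Tgfb2 were called lower. Il15 had 3.40, 9.78 and 21.6 CPM in double-mutant and 2.98, 11.8 and 19.6 CPM in control glands, nearly the same range. With TMM normalization the log2 difference was -0.91 ± 0.20 SE (edgeR adjusted p = 0.00287). Scaled to the library totals alone it was -0.28 (edgeR adjusted p = 0.377), and that for Tgfb2 went from -1.02 to -0.44 (edgeR adjusted p = 0.148). Without TMM the median of all genes moved by 0.62, and 17 of the 20 genes were called higher and 0 lower. Relative to the median of all genes, Il15 was at -0.92 with and -0.91 without TMM and Tgfb2 at -1.03 and -1.07, so only the test against 0 changed. With the batch as a block 4 genes were called, Ccl2, Ccl7, Cx3cl1 and Cxcl12, all higher, and Il15 was at -0.86 (edgeR adjusted p = 0.116). These 4 were higher under every scaling and block tried.

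**Figure D5:**
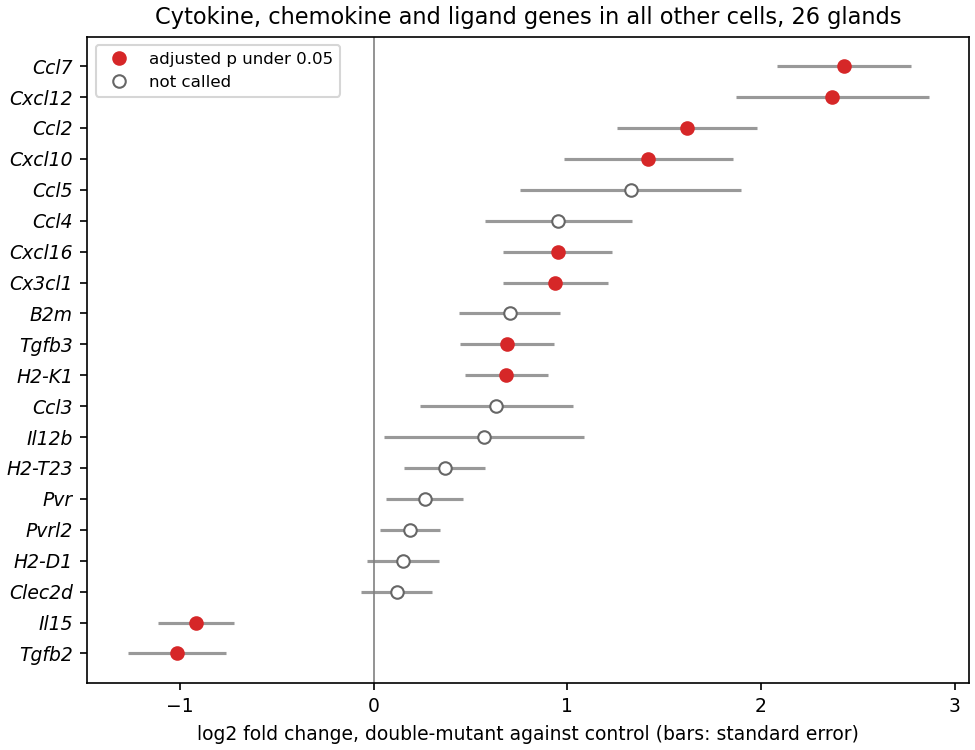
Log2 difference between double-mutant and control glands, with standard error, of 20 cytokine, chemokine and ligand genes in all cells other than the 226, over 26 Drop-seq glands with TMM normalization. Filled points have an adjusted p under 0.05, 8 above 0 and 2 below, and Il15 and Tgfb2 were not called without TMM, which moved the median of all genes by 0.62.

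In bulk mRNA of whole glands, with 1 library per genotype and no test, the genes of the rule had between 7 (Klrd1) and 48 counts (Klrk1) of 34515744 in the control gland at P70 and between 9 (Cd7) and 40 (Klrk1) of 34729551 in the double-mutant gland at P100. Klrd1 had 7 and 16 counts, Prf1 8 and 11, Nkg7 36 and 22, Ncr1 35 and 18, Gzma 47 and 28, and Xcl1 18 and 16, so that the cells were near the floor of the whole tissue. Il15 had 410 counts in the control and 86 in the double-mutant library, which differed in age as well as in genotype.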

How the data were processed

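Per the labels and the study's methods, the authors sorted live single cells of each gland and deposited UMI counts per gene and barcode for Drop-seq and CITE-seq, antibody tag counts for the same barcodes, and bulk exon counts (featureCounts), all without normalization. Reads were mapped with STAR to mm10. Whether tag counts are UMIs or reads is not given in the sources used here. Groups came from sample titles.

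The members and gene lists were chosen with earlier results of these data known. Cells were kept with at least 100 genes and under 15% mitochondrial UMIs, no doublet caller was run, and thinning drew 500 UMIs per cell. Each gland is 1 replicate. Shares were compared by permutation (100000 resamples, or 20000 for correlations), p-values adjusted by Benjamini-Hochberg. UMIs summed per gland were tested with edgeR 4.0.16 (quasi-likelihood, TMM, filterByExpr; sex, stage and genotype in the model), with DESeq2 1.42.0 and a binomial mixed model (lme4 1.1.37) as alternatives, in R 4.3.3 and Python 3.11.15 (numpy 2.4.6, scipy 1.17.1, matplotlib 3.10.9). The edgeR scripts were tested on simulated data, where 73% of genes changed by a log2 of 1 and 98% of those changed by a log2 of 2 were recovered in the 8753 genes of the other cells.

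Named were all rule genes, of each list the 4 genes with most UMIs and genes in 10% of the cells, the 20 genes of highest ratio, the 10 called genes of smallest p or 3 where none was called, and 10 tags or tag groups (NK1.1, CD4, CD8, the gamma-delta receptor, CD11b, EpCAM, CD127, CD103, CD69, isotype controls). Names outside this were chosen after values were seen. Binomial intervals (95%) and the floor of 3 counts cover counting error only.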

Additional observations from a re-analysis of the deposited data

Results flagged for a closer look

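Of 24 groups of 4 to 10 glands looked at for a gland far from the others, 2 had one, and chance gives about 1 in 20 such groups. The share of cytotoxic lymphocytes without Cd3 transcripts in the female double-mutant replicate 2 at P40 was 2.54%, against a median of 0.421% over the 7 glands of its group, and its gap to the next gland took 0.672 of the range. NK1.1 tags on the cells in the double-mutant CITE-seq replicate 2 were 151 per 10000 tags, against a median of 40.7 over the 4 glands, with a gap of 0.933 of the range.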

How the results depend on the processing

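The genotype difference in share (-0.00359 points) turned sign with at least 200 genes per cell (0.00683), without the 2 libraries of mismatched sex (0.0198), without the double-mutant P90 replicate 4 (0.0364), with a replicate block (0.0830, p = 0.777 by permutation), without cells of over 6000 UMIs (0.00566, chosen after the data were seen) and in the binomial mixed model (log odds 0.00615). No gland left out brought it past the threshold (-0.159 to 0.0871). Leaving out 1 CITE-seq gland gave -1.01 to 1.71 points for genotype and 0.682 to 45.1 tags for NK1.1, and the stage difference without the double-mutant P40 replicate 2, left out after the data were seen, was 0.0197. Without a filter on low counts, 1, 13 and 18 of 10141 genes were called for genotype, stage and sex, and leaving out 1 gland gave 0 to 0, 0 to 2 and 0 to 2. The cytokine and ligand list gave 4 calls with a batch block and 17 without TMM (added after the data were seen), against 10. The gene comparisons could not be made on glands with at least 10 of the cells, since there were 3 such glands. Without the double-mutant P90 replicate 4, which held none of the cells, the gene fits were the same by construction. Same-numbered glands did not deviate together as a whole (37 pairs, median correlation 0.0441), though single pairs ranged from -0.347 to 0.510. The numbers were therefore not read as pairs. The replicate block called 0 genes in each member comparison, gave 0.535 points for sex (permutation p = 0.0601), and called 12 genes of the list. Given as a share of cells with a UMI of Ptprc or a gene of the rule, the cells had a genotype difference of -6.64 points (permutation p = 0.0613). The low counts limit every gene comparison of the cells.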
